A study of Mus musculus with 2 samples.

Results

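The genes of the inflammasome pathway followed here, in mouse lung after exposure to PM2.5, were the sensor genes Nlrp1a, Nlrp1b, Nlrp3, Nlrc4 and Aim2, the adaptor gene Pycard, the protease gene Casp1, the pore gene Gsdmd and the cytokine genes Il1b and Il18. PM2.5 is fine airborne particulate matter that reaches the deep lung. The set was chosen by gene symbol with the PM2.5 to control ratios of these same counts already known, and all 10 genes were found among the 37315 gene identifiers counted. There was 1 library from lung of C57BL/6 mice exposed to PM2.5 and 1 library from lung of control C57BL/6 mice, an inbred laboratory strain. The titles of both libraries include 12W, whose meaning is not stated. The labels give no sex, age, dose, route or duration of exposure, and no number of animals per library.

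Inflammasomes are protein complexes of the cytosol that couple the sensing of infection or damage to the release of cytokines. A sensor that has met its trigger gathers the adaptor ASC, the product of Pycard, which in turn gathers pro-caspase-1. Active caspase-1 cuts the precursors of interleukin-1 beta and interleukin-18 into their mature forms, and it cuts gasdermin D, whose freed part forms pores in the cell membrane. These steps take place on proteins, so messenger RNA counts measure the template for each component and not its activity. In lung the genes are best known from macrophages, monocytes and neutrophils, and Il18 also from epithelium.

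The PM2.5 library held 57435027 counts over 23531 identifiers with at least 1 count, and the control library 62788045 counts over 21280. None of 10 lung epithelial markers was at 0 in either library, and Sftpc, the gene of surfactant protein C, had 1159636 counts in the PM2.5 library and 837001 in the control library. Levels are given as CPM, the usual per-library scaling of counts, here with a library size adjusted by edgeR's TMM factor. With 1 library per group there is no replicate check and no test, and the values describe these libraries, not the conditions. Each ratio is PM2.5 over control and carries an exact 95% counting interval, which covers counting error only. To be counted as higher or lower, a gene needed a ratio of at least 1.5-fold in that direction and an interval excluding equality. This was asked of the 14518 genes whose mean over both libraries reached 1 CPM.

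Most of the pathway's transcripts were higher in the PM2.5 library. All 10 genes passed the filter on mean CPM, and 9 of them reached 1 CPM in both libraries. Of the 10, 6 were counted as higher (Il1b, Nlrp1b, Aim2, Nlrp3, Casp1 and Gsdmd), 1 as lower (Nlrp1a) and 3 as neither (Il18, Pycard and Nlrc4). Among all genes tested, 14.9% were counted as higher and 19.1% as lower by the same rule, or 34.0% in either direction. Since the genes were chosen with results known, their excess over that background is a description. The median log2 ratio was 0.94 over the 10 genes and -0.09 over all genes tested. At a size of 2-fold, Gsdmd was no longer counted, so that 5 genes were higher and 1 lower, while 7.25% of all genes tested were higher and 6.04% lower. The 1.5-fold shares of 14.9% and 19.1% are also the background for the gene lists, cell markers and neighbouring genes below.

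**Figure D1:**
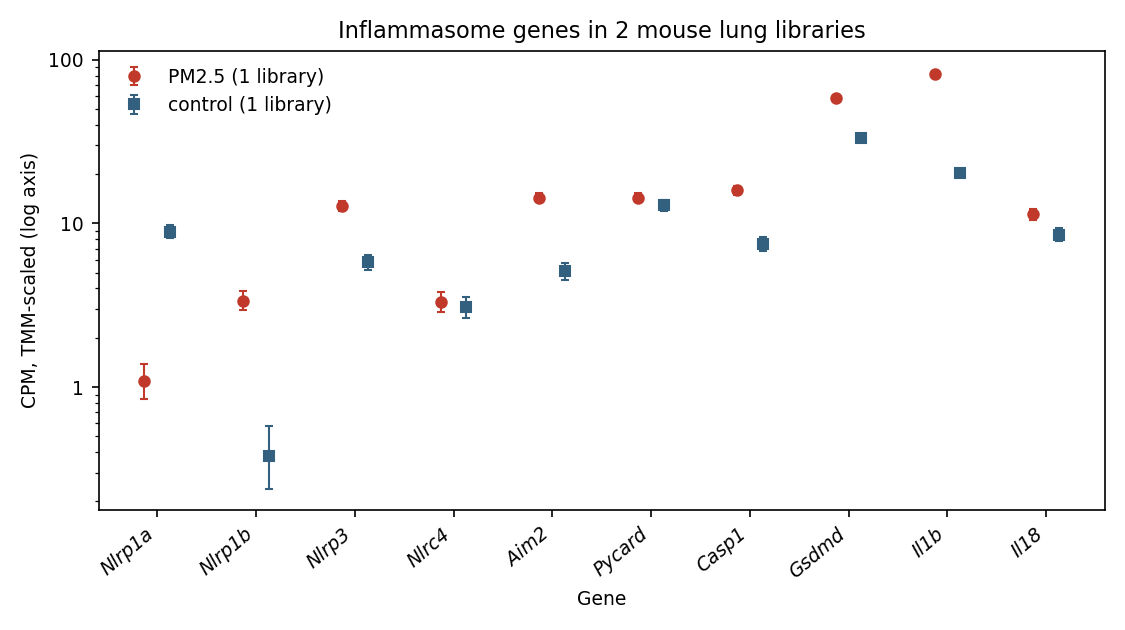
Level of each inflammasome gene in CPM (log axis) in the PM2.5 library (circles) and the control library (squares), 1 library each. Bars are exact 95% Poisson intervals of the counts. Il1b stood at 82.3 CPM in the PM2.5 library and 20.4 CPM in the control library, and Nlrp1b lay above Nlrp1a in the PM2.5 library and below it in the control library.

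**Figure D2:**
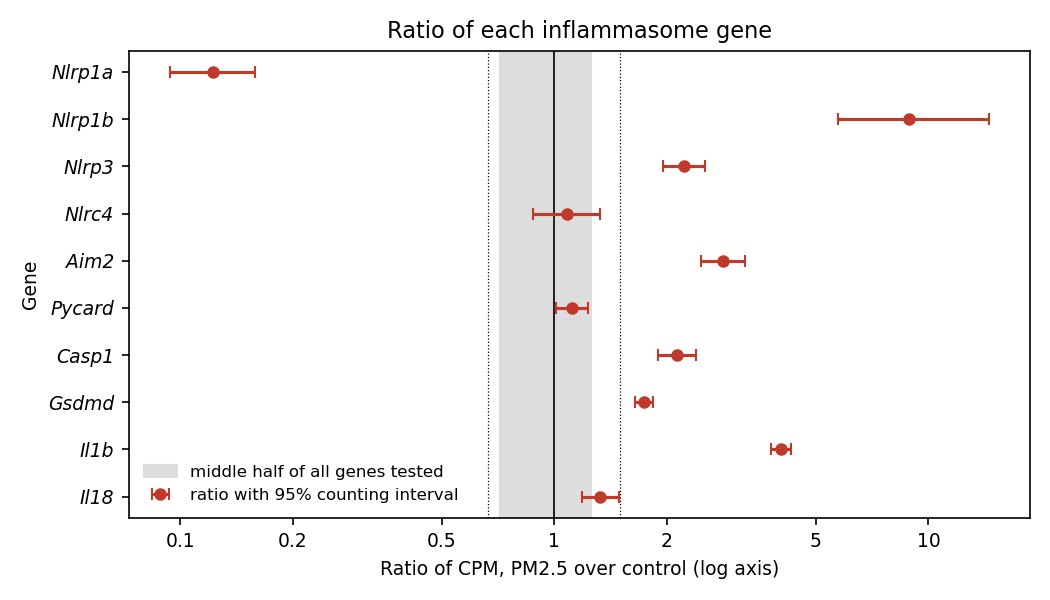
Ratio of CPM, PM2.5 over control (log axis), for each gene with its 95% counting interval. The grey band spans the quartiles of all genes tested, 0.718 to 1.25, and dotted lines mark 1.5-fold. Nlrp1a lay below the band at 0.123, while Nlrp1b and Il1b lay above it at 8.90 and 4.04.

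Nlrp1a and Nlrp1b, neighbouring copies of 1 ancestral sensor gene, moved in opposite directions. The Nlrp1b protein of some mouse strains, but not of all, is known as the sensor of anthrax lethal factor. Overactive Nlrp1a is known to cause systemic inflammation in mice. Both genes lie on the minus strand of GRCm38 chromosome 11, Nlrp1a (ENSMUSG00000069830) from 71092236 to 71144704 and Nlrp1b (ENSMUSG00000070390) from 71153102 to 71230733. Nlrp1a had 68 counts (1.09 CPM) in the PM2.5 library and 517 counts (8.92 CPM) in the control library. It was 8.16-fold lower in the PM2.5 library (6.33 to 10.7), and only 27 of the 14518 genes had a lower ratio. Nlrp1b had 210 counts (3.38 CPM) in the PM2.5 library and 22 counts (0.379 CPM) in the control library. It was 8.90-fold higher (5.72 to 14.5), with 76 genes at a higher ratio, and it passed the filter on mean CPM only through the PM2.5 library.

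The third copy, the pseudogene Nlrp1c-ps (ENSMUSG00000092528, chromosome 11, 71242430 to 71285232), had 55 counts in the PM2.5 library and 0 in the control library. Set against a floor of 3 counts in the control library, this is a ratio of 17.1, and the exact interval of the counts has a lower limit of 13.4. Its mean was below 1 CPM. The 3 copies together held 333 counts in the PM2.5 library and 539 in the control library, and their sum was 1.74-fold lower (1.51 to 2.0). The composition of that sum differed more than its size. Nlrp1a made 20.4% of the counts of the 3 copies in the PM2.5 library (exact Clopper-Pearson interval 16.2 to 25.2%) and 95.9% in the control library (93.9 to 97.4%). Nlrp1b made 63.1% (57.6 to 68.3%) in the PM2.5 library and 4.08% (2.58 to 6.11%) in the control library. Nlrp1c-ps made 16.5% (12.7 to 20.9%) in the PM2.5 library and 0 of 539 counts in the control library, for which 3 counts would be 0.557% and the exact upper limit is 0.682%. These shares do not depend on how the libraries are scaled.

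The genes around the copies did not show such a difference. Within 500 kb of Nlrp1a, 21 other genes apart from Nlrp1b were tested. Of these, 2 were higher and 3 lower, beside 14.9% and 19.1% of all genes tested. The ratios of the 21 genes ran from 0.516 to 3.44 around a median of 0.968. The copies are similar in sequence, and how the aligner and the counting divided reads between them is not given in the sources used here, so the separate values are uncertain. Both libraries are labelled C57BL/6 with no substrain or animal source, and whether their animals carried the same form of these copies was not tested. The longest annotated transcripts of Nlrp1a and Nlrp1b were 85.3% identical over 3646 aligned bases, and those of Nlrp1a and Nlrp1c-ps 88.6% over 3355. Of the 4256 distinct windows of 50 bases in Nlrp1a transcripts, 76 (1.79%) also occurred in Nlrp1b transcripts and 12 in those of Nlrp1c-ps. Of its 4406 windows of 125 bases, the read length, 0 occurred in either.

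**Figure D3:**
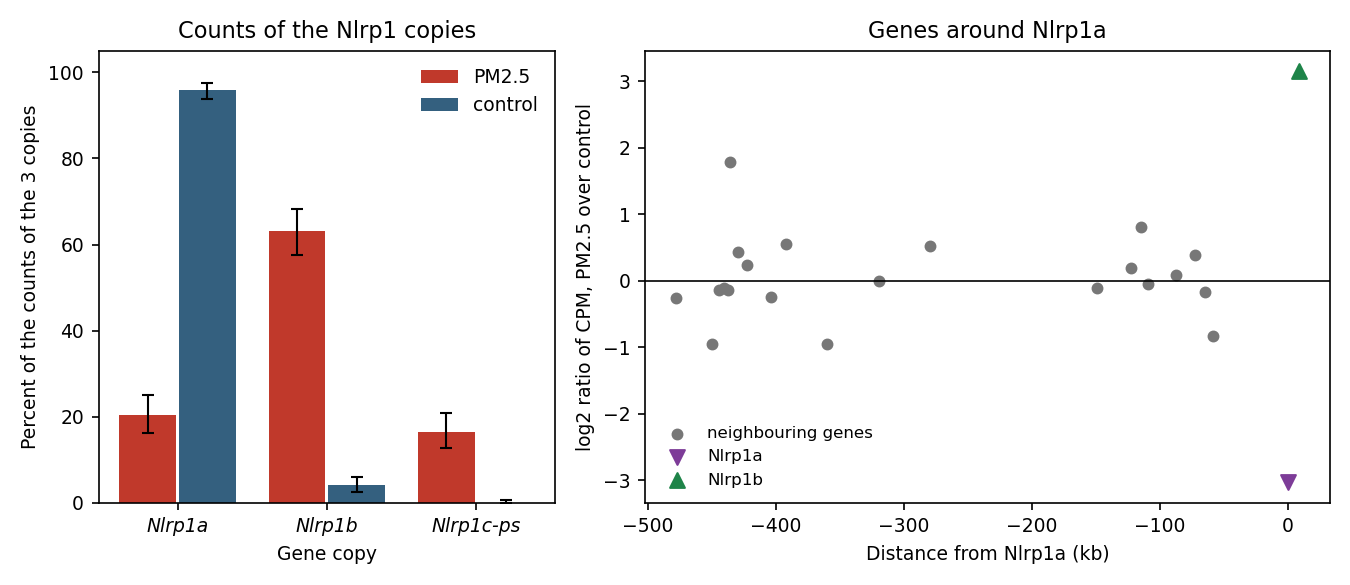
Left, percent of the counts of Nlrp1a, Nlrp1b and Nlrp1c-ps that fell on each copy in the PM2.5 library (left bars) and the control library (right bars), with exact 95% binomial intervals. Right, log2 ratio of CPM, PM2.5 over control, of Nlrp1a, Nlrp1b and the other 21 genes tested within 500 kb, by distance from Nlrp1a in kb. Nlrp1a at -3.03 and Nlrp1b at 3.15 lay outside the range of the other genes.

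The promoters of the 2 copies are shown because the genes moved apart while their start regions are nearly alike. The windows run from 250 bases before to 50 after the RefSeq start on GRCm38.p6, both on the minus strand, and capitals mark bases without an identical partner in the other window. Of 282 aligned bases 253 were identical (89.7%), and 18 bases of each window had no partner. Both windows hold gaggaagt, the letters searched for as a PU.1-type motif, beginning at -83 in Nlrp1a and at -96 in Nlrp1b relative to the start.
Nlrp1a, chr11:71144655-71144954: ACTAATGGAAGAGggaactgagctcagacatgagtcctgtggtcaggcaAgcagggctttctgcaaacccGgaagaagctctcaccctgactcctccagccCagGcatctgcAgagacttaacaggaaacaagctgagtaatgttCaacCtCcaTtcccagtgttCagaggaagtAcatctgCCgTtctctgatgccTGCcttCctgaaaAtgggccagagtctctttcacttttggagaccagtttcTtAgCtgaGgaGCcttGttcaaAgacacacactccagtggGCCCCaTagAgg
Nlrp1b, chr11:71230684-71230983: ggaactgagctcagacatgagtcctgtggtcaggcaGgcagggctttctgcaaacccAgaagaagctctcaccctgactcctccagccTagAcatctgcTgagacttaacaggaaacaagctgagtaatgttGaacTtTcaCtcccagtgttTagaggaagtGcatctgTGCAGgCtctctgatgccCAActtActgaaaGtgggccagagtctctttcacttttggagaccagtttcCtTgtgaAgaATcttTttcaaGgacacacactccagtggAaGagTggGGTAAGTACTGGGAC

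Nlrp3 and Aim2 were both higher in the PM2.5 library. Nlrp3 senses potassium loss and membrane damage and is the sensor linked to swallowed particles and crystals, and Aim2 binds double-stranded DNA in the cytosol. Nlrp3 (ENSMUSG00000032691, chromosome 11, 59541568 to 59566956) had 799 counts (12.8 CPM) in the PM2.5 library and 336 counts (5.80 CPM) in the control library, a ratio of 2.22 (1.95 to 2.53). Aim2 (ENSMUSG00000037860, chromosome 1, 173350879 to 173466040) had 894 counts (14.4 CPM) in the PM2.5 library and 295 counts (5.09 CPM) in the control library, a ratio of 2.82 (2.47 to 3.23). Their intervals were far from equality, and 866 of all genes tested had a higher ratio than Nlrp3 and 537 a higher ratio than Aim2. Around Aim2 lie other interferon-inducible DNA-binding genes of the Ifi200 family. Within 500 kb, 6 of 12 tested genes were higher and 1 was lower, beside 14.9% and 19.1% of all genes tested. The median ratio of the 12 was 1.51, and many of them are close copies whose separate values are uncertain.

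Nlrc4, the platform that binds bacterial flagellin and secretion-system proteins through its NAIP partners, was not counted as higher or lower under any scaling tried. Nlrc4 (ENSMUSG00000039193, chromosome 17, 74425438 to 74459142) had 206 counts (3.31 CPM) in the PM2.5 library and 178 counts (3.07 CPM) in the control library. Its ratio was 1.08, with an interval of 0.878 to 1.33 that included equality, while with library totals it was 1.27 (1.03 to 1.56). The NAIP genes differed from one another. The flagellin receptor genes Naip5 and Naip6 were 2.32-fold (2.05 to 2.63) and 2.34-fold (1.99 to 2.78) higher, while Naip2, whose protein binds the secretion-system rod, had a ratio of 0.920 (0.840 to 1.01). Naip1 rested on 18 counts in the PM2.5 library and 3 in the control library. The longest transcripts of Naip5 and Naip6 are 96.9% identical, and 206 of 5080 windows of 125 bases of Naip5 also occur in Naip6, so their separate values are uncertain.

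The other sensors of a list of 13 were mixed. Of 9 tested, 4 were higher, 2 lower and 3 neither, and the median log2 ratio was -0.02. Mefv, the gene of the inflammasome sensor pyrin, was 4.46-fold higher (3.52 to 5.71) with 402 counts in the PM2.5 library and 84 in the control library. Nlrp12 was 2.75-fold higher. The mitochondrial family member Nlrx1 was 1.72-fold lower, but 1.47-fold and not counted with library totals. Nlrp10 was 1.88-fold lower and passed the filter through the control library, being at 0.900 CPM in the PM2.5 library and 1.69 CPM in the control library. Nod1, the sensor of bacterial wall fragments and the most abundant of the list, had a ratio of 0.942. Nlrp6, below the filter, had 5 counts in the PM2.5 library and 24 in the control library.

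Pycard, the adaptor that links sensors to caspase-1, was nearly level between the libraries. Pycard (ENSMUSG00000030793, chromosome 7, 127989708 to 127993867) had 895 counts (14.4 CPM) in the PM2.5 library and 746 counts (12.9 CPM) in the control library. The ratio of 1.12 (1.01 to 1.23) lay inside the quartiles of all genes tested. An annotated transcript on the opposite strand shares 485 of its 3800 exon bases, and the strand setting of the counting is not given in the sources used here.

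Casp1, which codes for the protease at the centre of the pathway, was 2.13-fold higher. Casp1 (ENSMUSG00000025888, chromosome 9, 5298517 to 5307265) had 990 counts (15.9 CPM) in the PM2.5 library and 434 counts (7.49 CPM) in the control library, with an interval of 1.90 to 2.39. The only tested genes within 500 kb were Casp4 and Casp12, and both were higher too. Casp4, the mouse caspase-11 gene, whose protein binds lipopolysaccharide inside cells and cuts gasdermin D, was 1.71-fold higher (1.54 to 1.89), and Casp12 was 1.67-fold higher. Casp8, an initiator caspase of cell death, had a ratio of 0.891 and was counted as neither.

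Gsdmd, which codes for gasdermin D, was 1.74-fold higher. Gsdmd (ENSMUSG00000022575, chromosome 15, 75862327 to 75867408) had 3610 counts (58.0 CPM) in the PM2.5 library and 1935 counts (33.4 CPM) in the control library. The counting interval of the ratio was 1.65 to 1.84. The ratio was 1.58 with the trend of ratios with transcript length removed and 2.04 with library totals, both outside that interval. Among related genes, Gsdme, another pore-forming gasdermin, was 1.96-fold higher on 449 counts in the PM2.5 library and 213 in the control library. Ninj1, needed for the final rupture of the membrane, had a ratio of 1.37. Gsdma, Gsdmc and Gsdmc2 had at most 1 count in a library. Of 10 tested genes of the list of other caspases, gasdermins and membrane rupture, 3 were higher, 1 lower and 6 neither. The background shares were 14.9% higher and 19.1% lower. The list had a median log2 ratio of 0.11, which was -0.02 with the length trend removed.

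Il1b had more counts in the PM2.5 library than any of the other 9 genes and, after Nlrp1b, the highest ratio. Il1b codes for interleukin-1 beta, a fever-inducing cytokine made as an inactive precursor after signals such as those of Toll-like receptors. Il1b (ENSMUSG00000027398, chromosome 2, 129364570 to 129371139, minus strand) had 5119 counts (82.3 CPM) in the PM2.5 library and 1182 counts (20.4 CPM) in the control library. The ratio was 4.04 (3.79 to 4.30), and 277 of the 14518 genes had a higher one. The antisense gene Il1bos, which shares 25 of the 1907 exon bases of Il1b, had 41 counts in the PM2.5 library and 1 in the control library, at a mean below 1 CPM. Its ratio of 38.2 rests on that single control count, and its interval ran from 6.49 to 1546. Of 13 genes tested within 500 kb, 4 were higher and 1 lower, beside 14.9% and 19.1% of all genes tested. The neighbouring cytokine gene Il1a was among those counted as neither.

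The Il1b start region is shown because Il1b had the most counts of the 10 genes in the PM2.5 library. The window runs from 250 bases before to 50 after the RefSeq start on the minus strand of GRCm38.p6. Capitals mark TTGTGAAA, a match to the C/EBP-type letters TTNNGNAA, and a TATA box, TATAAA, that begins at -31.
Il1b, chr2:129371090-129371389: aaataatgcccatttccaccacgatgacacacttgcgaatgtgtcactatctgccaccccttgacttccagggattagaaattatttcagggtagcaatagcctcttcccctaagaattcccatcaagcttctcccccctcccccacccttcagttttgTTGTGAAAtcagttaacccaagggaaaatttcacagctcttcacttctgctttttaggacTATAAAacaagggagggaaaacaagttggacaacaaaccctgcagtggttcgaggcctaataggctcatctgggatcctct

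A window was found for 9 of the 10 genes (Gsdmd is named only), and 4 motifs were searched on both strands, without any overlap between matches of different motifs. GAGGAAGT, a PU.1-type motif, occurred in 4 of the 9 windows, those of Nlrp1a, Nlrp1b, Aim2 and Pycard, against 3.20% of all 32851 promoter windows. TATAAA occurred in 2 of the 9, at -31 in Il1b and on the opposite strand at -175 in Il18, against 13.6% of all windows, and TTNNGNAA in 7 of the 9, against 40.7%. An NF-kB-type motif (GGG, any 2 bases, then TTTCC) occurred in 0 of the 9 and in 1.63% of all windows. Nlrp1a and Nlrp1b are copies and so do not count as separate cases. A match is a string of letters and does not show that a factor binds there.

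Il18, whose product drives interferon gamma production by natural killer and T cells, was not counted as higher or lower. Il18 (ENSMUSG00000039217, chromosome 9, 50554827 to 50581840) had 706 counts (11.4 CPM) in the PM2.5 library and 495 counts (8.54 CPM) in the control library, a ratio of 1.33 with an interval of 1.18 to 1.49. It was 1.56, and counted as higher, with library totals in place of TMM, and 0.990 with the trend of ratios with transcript length removed. No direction is therefore given for Il18.

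The order of the genes by level per length, in CPM per kilobase of merged exons, changed at the top. In the PM2.5 library Il1b came first at 43.2, before Gsdmd at 24.4, Il18 at 11.0 and Casp1 at 10.6, and the counting intervals of Il18 and Casp1 overlapped. In the control library Gsdmd came first at 14.0, before Il1b at 10.7, Il18 at 8.28 and Casp1 at 5.0. Aim2, Pycard and Nlrp3 followed in the PM2.5 library at 4.11, 3.79 and 3.17, and the intervals of Aim2 and Pycard overlapped. Pycard at 3.39, Nlrp1a at 2.14, Aim2 at 1.45 and Nlrp3 at 1.43 followed in the control library, where the intervals of Aim2 and Nlrp3 overlapped. Nlrc4, Nlrp1b and Nlrp1a were the lowest in the PM2.5 library at 0.689, 0.535 and 0.262. The order of close neighbours depended on the length used. Over the length of the principal transcript, Nlrp1b at 0.817 stood above Nlrc4 at 0.700 in the PM2.5 library, and Il18 at 13.2 stood further above Casp1 at 10.6. Over merged exons, the level of Il1b was 3.92 times that of Il18 in the PM2.5 library and 1.29 times in the control library. No scaling of the libraries changes this comparison, but the length used does. Over the principal transcript, Il1b stood at 60.7 and Il18 at 13.2 in the PM2.5 library. The values in the control library were 15.0 and 9.93.

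The other ligands of the IL-1 family had lower ratios than Il1b. Of 5 tested ligands and binding proteins, 2 were higher, 3 neither and none lower, with a median log2 ratio of 0.43. Il1f9, now named Il36g, an epithelial ligand of the IL-36 receptor, had 1364 counts in the PM2.5 library and 358 in the control library and was 3.55-fold higher (3.16 to 4.0). Il18bp, whose secreted protein captures interleukin-18, was 1.72-fold higher. Il1a, the ligand that shares its receptor with interleukin-1 beta, had 156 counts in the PM2.5 library and 134 in the control library, a ratio of 1.09 (0.856 to 1.38). Il1rn, the receptor antagonist, and the alarmin gene Il33 had ratios of 1.34 and 1.35, below the size set. The per-length level of Il1b was 13.8 times that of Il1rn in the PM2.5 library and 4.58 times in the control library.

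Among receptor genes, Il18rap and Il1r2 were higher. Of 15 tested receptor and signalling genes, 2 were higher, 1 lower and 12 neither, with a median log2 ratio of -0.01. These counts gave no excess over the 14.9% higher and 19.1% lower among all genes tested. Il18rap, the accessory chain of the interleukin-18 receptor, had 1948 counts in the PM2.5 library and 601 in the control library and was 3.02-fold higher (2.76 to 3.31), while the ligand-binding chain gene Il18r1 had a ratio of 0.905. Il1r2, the decoy receptor for interleukin-1, had 651 counts in the PM2.5 library and 208 in the control library and was 2.92-fold higher (2.49 to 3.43). The signalling receptor gene Il1r1 had a ratio of 0.756, so that its per-length level was 1.44 times that of Il1r2 in the PM2.5 library and 5.55 times in the control library. Il1rap and Il1rl1, the shared accessory chain and the interleukin-33 receptor, had ratios of 0.687 and 1.44. The adaptor gene Myd88 had a ratio of 0.940, and Tollip, an inhibitor of receptor signalling, was 1.82-fold lower.

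Among 14 tested genes that trigger or restrain inflammasomes, 2 were higher, 2 lower and 10 neither, and the median log2 ratio was 0.06. These shares are near those of all genes tested, 14.9% and 19.1%. With library totals 6 were higher and 0 lower, beside 23.8% and 9.90% of all genes tested. With the upper quartile 4 were higher and 0 lower, beside 19.5% and 13.2%. Pstpip1, which codes for a binding partner of pyrin, was 2.80-fold higher (2.57 to 3.06), and Card9, a signalling adaptor of fungal receptors, 1.62-fold higher, with a ratio of 1.45 once the length trend was removed. Txnip, a stress-responsive thioredoxin inhibitor reported to bind Nlrp3, was 1.59-fold lower, and Nek7, the kinase that bridges Nlrp3 subunits, 1.54-fold lower (1.49 to 1.59). Neither kept its call with library totals, at 1.36-fold for Txnip and 1.31-fold for Nek7, or with the upper quartile. With the length trend removed, Nek7 at 1.37-fold lower was not counted either, while Txnip at 1.64-fold lower was. The ATP-gated channel gene P2rx7 and the protease gene Dpp9, which restrains Nlrp1, had ratios of 0.864 and 0.866.

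NF-kB factors act before inflammasome assembly by raising Nlrp3 and Il1b transcripts. In the list of these factors and their early targets, which include inhibitors, 4 of 14 tested genes were higher, 3 lower and 7 neither. The median log2 ratio was -0.09. The higher genes were the nuclear regulator Nfkbiz at 3.25-fold and the cytokine gene Tnf at 3.98-fold. They also included the prostaglandin synthase gene Ptgs2 at 2.14-fold and the lipopolysaccharide co-receptor gene Cd14 at 1.52-fold. The targets were mixed. Tlr2 at a ratio of 1.32, Nfkbie at 0.961 and Tnfaip3 at 0.731 were counted as neither. The lower genes were the subunit genes Nfkb1 at 1.79-fold and Rela at 1.57-fold and the inhibitor gene Nfkbia, itself a target, at 1.54-fold. With library totals Rela at 1.34-fold and Nfkbia at 1.31-fold were not counted, nor were they with the upper quartile. With the length trend removed, Nfkb1 at 1.47-fold lower and Cd14 at a ratio of 1.27 were not counted. Tnf rested on 171 counts in the PM2.5 library and 40 in the control library, and at 2.75 CPM in the PM2.5 library and 0.690 CPM in the control library it passed the filter only through the PM2.5 library. The medians of the lists of sensors, receptors and NF-kB genes carried no firm direction, since each lay above 0 when library totals, or upper quartile factors, set the scale.

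**Figure D4:**
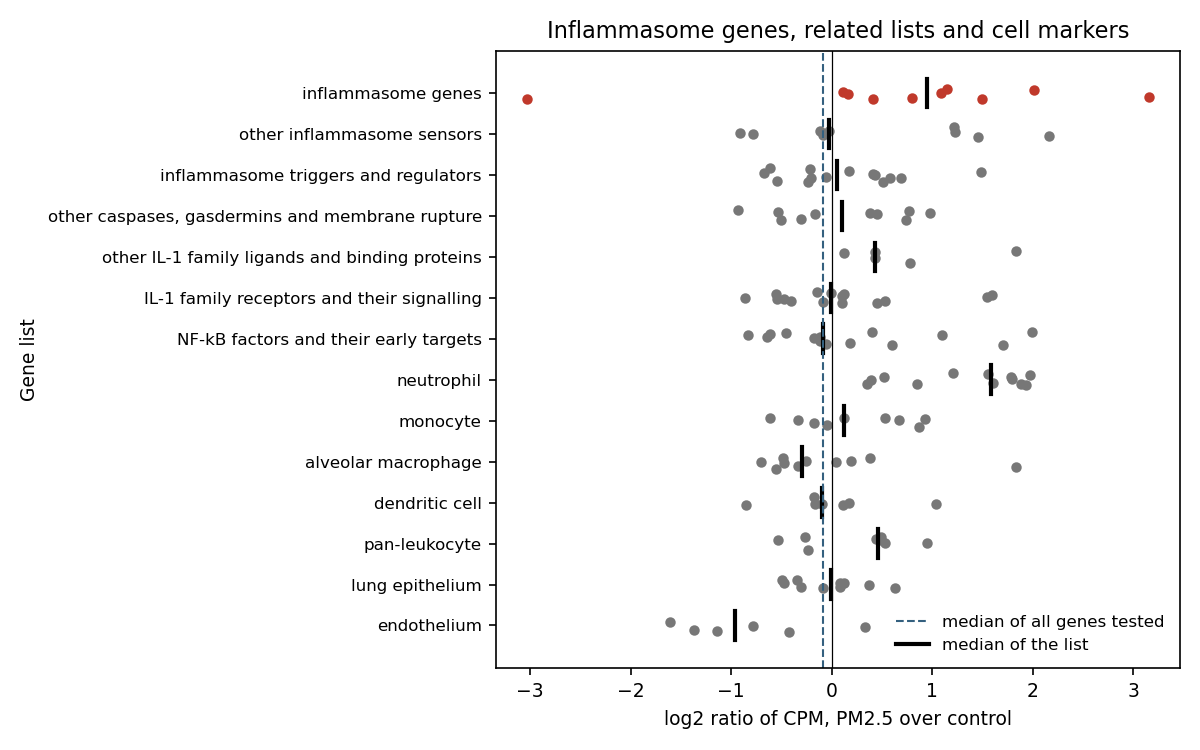
Log2 ratio of CPM, PM2.5 over control, of each tested gene (points) in the inflammasome genes, 6 related lists and 7 cell marker lists, with the median of each list (bars). The dashed line is the median of all genes tested, -0.09. The inflammasome genes had a median of 0.94 and neutrophil markers one of 1.58, while the lists of other sensors, receptors and NF-kB genes had medians near 0.

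Markers of the cell types in lung differed unequally between the libraries. Of 12 neutrophil markers, 9 were higher and none lower, with ratios of 1.27 to 3.93, a median log2 ratio of 1.58 and summed levels of 1769 CPM in the PM2.5 library and 599 CPM in the control library. Of these 9, Ly6g passed the filter only through the PM2.5 library. The ratio of Il1b, 4.04, overlapped in its interval with that of Csf3r, the highest of the 12 markers at 3.93 (3.81 to 4.06). The intervals of Padi4 and Ly6g also overlapped that of Il1b, and those of the other markers lay below it. S100a8, for instance, had a ratio of 3.46 (3.37 to 3.55). With the length trend removed the ratio was 3.46 for Il1b, 3.92 for Csf3r and 2.39 for S100a8. The median log2 ratio of the neutrophil markers was then 1.16. Alveolar macrophage markers summed to 957 CPM in the PM2.5 library and 965 CPM in the control library, with 1 of 10 higher and 1 lower. Monocyte markers summed to 394 CPM in the PM2.5 library and 355 CPM in the control library, with 3 of 9 higher, among them Ly6c2 at 1.83-fold, and 1 lower. Of 7 dendritic cell markers 1 was higher and 1 lower, with sums of 134 CPM in the PM2.5 library and 166 CPM in the control library. Pan-leukocyte markers summed to 1492 CPM in the PM2.5 library and 1370 CPM in the control library, with 1 of 8 higher. With library totals 5 of the 8 were higher, and with the upper quartile 4, beside 23.8% and 19.5% of all genes tested. Ptprc, the gene of the leukocyte antigen CD45, had a ratio of 1.45. With the length trend removed, Ptprc at 1.82 was counted as higher. Cd52, the 1 higher gene of the list with TMM, was then at 1.48 and not counted. Sums and medians did not always go together. The median ratio was 0.816 for alveolar macrophage markers, 1.09 for monocyte, 0.934 for dendritic cell and 1.38 for pan-leukocyte markers.

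No gene of these marker lists was at 0 in either library. Epithelial markers had a median ratio of 0.998, with 1 of 10 higher, and endothelial markers one of 0.513, with 4 of 6 lower. With the length trend removed, 0 epithelial markers were higher and 2 lower, beside 14.3% and 16.6% of all genes tested. Their median log2 ratio was then -0.20. Scgb1a1, the 1 higher marker, moved from 1.54 to 1.0, and Sftpc from 1.29 to 0.962. Of the endothelial markers 5 were then lower, and 3 with library totals. The epithelial markers summed to 56918 CPM in the PM2.5 library and 44015 CPM in the control library. The endothelial sums were 2364 CPM in the PM2.5 library and 4700 CPM in the control library. The part of neutrophils or other cells in the higher Il1b, Casp1, Aim2, Nlrp3, Mefv, Il1r2 and Il18rap values was not tested. In whole tissue, more cells of a type and more RNA per cell cannot be told apart.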

How the data were processed

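Per the labels' protocols, total RNA of mouse lung was extracted with TRIzol, polyadenylated RNA was selected and treated with DNase, and stranded libraries (KAPA) were sequenced on a HiSeq2500 in pairs, with reads of 125 bases. TopHat2 2.1.1, HTSeq 0.6.0 and the build mm10 are named, with no roles given, per the submitters' processing notes. The authors deposited raw read counts per Ensembl gene, without normalization. The strand setting, like the annotation release, is not given in the sources used here, and 1 blank line of the PM2.5 file was dropped. Symbols, coordinates and exons came from GENCODE M21 on GRCm38, which matched 35449 of 37315 identifiers.

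Libraries were scaled with edgeR 4.0.16 (TMM factors 1.08 for PM2.5 and 0.923 for control). Ratios of CPM carry exact Clopper-Pearson intervals, computed from the share of a gene's counts that fell in the PM2.5 library. The floor of 3 counts is 0.0482 CPM in PM2.5 and 0.0517 CPM in control. It was used only for Nlrp1c-ps, which had 0 counts in the control library, and entered no call. Intervals and the floor cover counting error only. The intervals treat reads as independent. Reads without molecular identifiers are not independent molecules, so the intervals may be too narrow even for counting error. No model of the spread between animals was fitted, each group being 1 library. Per-length levels used merged exons of all annotated transcripts. Promoter windows are RefSeq's on GRCm38.p6. Alternatives were library totals, size factors of DESeq2 1.42.0, the upper quartile, TMM without the 100 genes of most counts, thinning of the control library, removal of the length trend (lowess, statsmodels 0.14.6), other sizes and other filters.

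The genes and lists were chosen with earlier results of these data known. All 10 inflammasome genes were named with every value, a set of related genes whatever their values, and from each list up to 4 higher and 2 lower genes by the interval bound nearest to equality and the most abundant one. Not all of these are described, some are not reported here, and genes such as Nlrp6, Naip1, Dpp9, Ptprc and Il1bos were chosen after their values were seen. R 4.3.3, Python 3.11.15, numpy 2.4.6, pandas 2.3.3 and scipy 1.17.1 were used.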

Additional observations from a re-analysis of the deposited data

How the results depend on the processing

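The counts of inflammasome genes were recomputed under 9 alternatives, and under 1 more that was chosen after seeing the data. Of the 10 genes, 6 were higher and 1 lower with TMM, and the number of higher genes was 5 to 7 under each alternative except a mean of at least 10 CPM. That filter left 4 of the 10 genes, of which 3 were higher and 0 lower. With Nlrp1a, Nlrp1b and Nlrp1c-ps summed as 1 gene, the alternative added later, 5 were higher and 1 lower. Il1b and Casp1 were counted as higher under these 9 alternatives, with ratios of 3.46 to 4.73 and 1.71 to 2.49. Library totals and the upper quartile raised all log2 ratios by 0.23 and 0.14.

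Over all genes tested, 2163 were higher and 2776 lower. With library totals these were 3456 and 1440, and at a size of 2-fold 1053 and 877. Without a filter 4471 were higher, and at a mean of at least 10 CPM 866. Higher genes made 43.8% of the counted genes with TMM, 70.6% with library totals, 59.7% with the upper quartile, 54.6% at 2-fold, 59.0% without a filter and 28.3% at 10 CPM. With library totals, 5 of 10 tested genes of the caspase and gasdermin list, 4 of 5 other ligands and 4 of 15 receptor and signalling genes were higher, against 3, 2 and 2 with TMM. The share over all genes tested was 23.8% with library totals and 14.9% with TMM. Library totals raised each log2 ratio by the same 0.23, so that more genes passed the 1.5-fold line. Why the scalings differ was not tested.

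No paired analysis was possible because each group has 1 library, so none was left out. The depth limits Nlrp1b, Nlrc4 and Nlrp1a most, whose ratios rest on 22 to 517 counts per library.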
